A study of Mus musculus with 12 samples.

Results

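The 32 genes described here carry glucose from uptake to pyruvate, lactate and the pyruvate dehydrogenase complex, together with the hypoxia factor Hif1a and its target Bnip3. They are a list of glycolysis, lactate and pyruvate dehydrogenase genes named by function, with no threshold on a measured value, from 35523 genes for which estimated read counts could be added up. All 32 passed the minimum of 10 counts over the 12 libraries, as did 18028 genes in all. RNA was sequenced from adult cardiac fibroblasts of wild-type C57BL/6J mice of both sexes, grown in culture and moved to medium with 0.1% serum for 24 h before treatment. The 4 groups of 3 libraries were scramble siRNA with vehicle, scramble siRNA with TGF-β (10 ng per ml), H1.0 siRNA with vehicle and H1.0 siRNA with TGF-β. All groups therefore carry a transfected siRNA, and H1.0 was lowered for a time in cells that keep the gene. How long TGF-β acted before the RNA was taken was not given in the labels. Per the study's methods, the 3 libraries of a group are biological replicates from different animals or isolations. Whether libraries with the same number in different groups came from 1 isolation was not given.

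Glycolysis splits glucose into pyruvate in the cytosol and yields ATP and NADH. Pyruvate is then reduced to lactate and exported with a proton, or enters mitochondria, where the pyruvate dehydrogenase complex turns it into acetyl-CoA unless its kinases switch the complex off. Several steps have more than one isoenzyme, and fibroblasts that become matrix-producing myofibroblasts are known for raised glycolysis and lactate output. TGF-β is the cytokine commonly used to drive that change in culture, and H1.0 is a linker histone, which binds the DNA entering and leaving the nucleosome.

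H1f0, the gene of H1.0 on chromosome 15 from 79028450 to 79030504, checked the labels. Its normalized count lay between 2515 and 3033 in the 6 scramble libraries and between 510.3 and 1075 in the 6 H1.0 siRNA libraries, so every H1.0 siRNA library was below every scramble library. Normalized counts here are counts scaled by TMM factors to the mean library total of 26.9 M, and TPM is the level per transcript length. Scramble libraries held 19.9 to 24.4 M counts, those of the H1.0 siRNA vehicle group 21.4 to 35.5 M and those of the H1.0 siRNA TGF-β group 36.2 to 36.3 M, so that depth moved with the group. The 9 fibroblast markers were all present, with a summed TPM between 13938 and 20899. Of the other cell types, macrophage markers summed to a TPM of 576 to 1434, and cardiomyocyte markers to 132 to 197 TPM in scramble and 14.7 to 24.1 TPM in H1.0 siRNA libraries. Tnnt2 alone ranged from 9.66 to 188 TPM, while the defining genes Myh6 and Myl2 reached at most 0.726 and 0.71 TPM in the 12 libraries. Whether such cells had a part in the results below was not tested, and in bulk RNA fewer cells of a type and less RNA per cell cannot be told apart.

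TGF-β raised 9 of the 32 members in both siRNA backgrounds. Among them were the glucose transporter Slc2a1, most enzymes from Aldoa to Pkm and the lactate exporter Slc16a3. H1.0 siRNA lowered 7 members whether or not TGF-β was given, where 11.2% of all genes were lower with vehicle and 11.3% with TGF-β. How many of all genes were called in both comparisons of a pair was not counted, for either of these numbers of members. In scramble cells 11 members rose and 2 fell with TGF-β (edgeR's quasi-likelihood test, adjusted p under 0.01 over all genes), beside 10.5% of all genes tested that rose, 7.94% that fell and 18.4% called in either direction. The median log2 fold change of the 32 members was 0.30, against -0.01 over all genes. In H1.0 siRNA cells 10 members rose and 2 fell with TGF-β, where 9.14% of all genes rose, 6.60% fell and 15.7% were called in all, and the members' median was 0.34 against -0.01. A call is by edgeR unless another tool is named. Those that rose in both backgrounds were Slc2a1, Aldoa, Gapdh, Pgk1, Pgam1, Eno1, Pkm, Slc16a3 and Pdk3.

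Without TGF-β, 8 members were lower and 3 higher in H1.0 siRNA cells than in scramble cells, beside 11.2% of all genes that were lower, 13.4% that were higher and 24.7% called in all. Without scramble vehicle 2 that total of 11 called members was 7. With TGF-β the counts were 7 lower and 2 higher, beside 11.3% lower, 13.0% higher and 24.3% in all. The medians of the 32 members were -0.06 in both settings, where all genes had 0.00 and 0.04. Of the called genes, Pdk3, Slc2a1, Hif1a, Pkm, Gapdh, Hk1 and Aldoa were lower in both settings, and Pfkp and Pfkfb4 were higher in both. No member passed the test of whether the response to TGF-β differed between H1.0 siRNA and scramble cells, a test that called 0.0444% of all genes (8 genes by edgeR). There 5 members had an unadjusted p under 0.05, compared with 2149 genes in all. DESeq2 called no member either, with 110 genes higher and 129 lower in all, and limma-voom called no member, with 2 genes higher and 2 lower. The comparisons share libraries, so their values are given side by side and no overlap between them was tested.

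**Figure D1:**
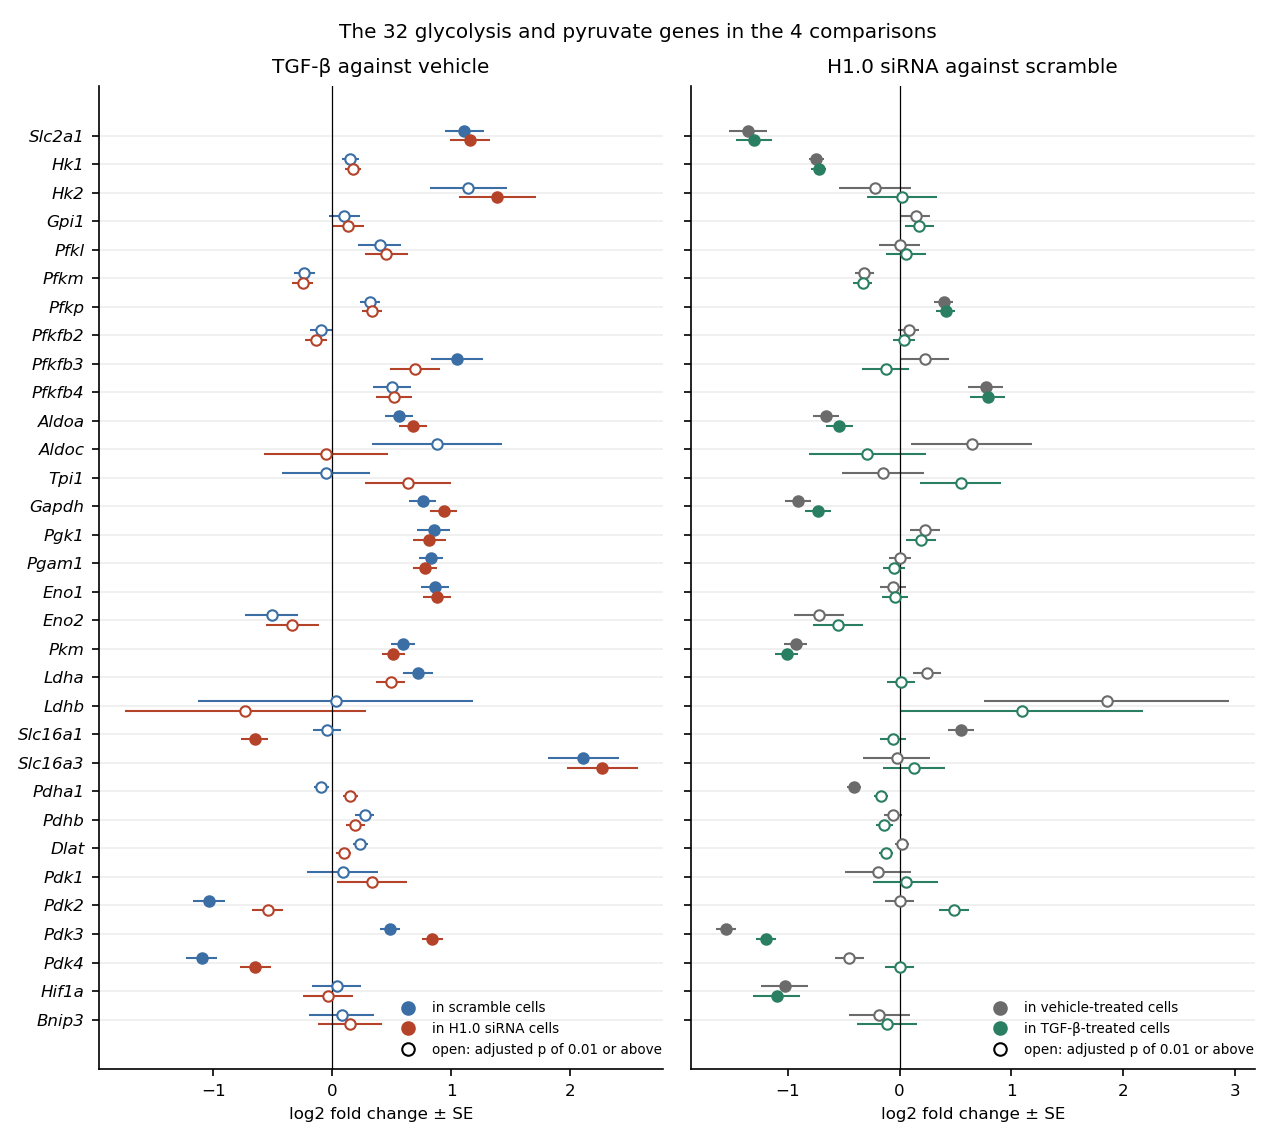
Log2 fold change with its standard error (x axis) of each of the 32 genes (rows, in the order of the pathway), on the left for TGF-β against vehicle in scramble (blue) and H1.0 siRNA cells (red), on the right for H1.0 siRNA against scramble with vehicle (grey) and with TGF-β (green). Filled points passed an adjusted p of 0.01. On the left, Slc16a3 reaches 2.11 and 2.27. Gapdh, Pgk1, Pgam1, Eno1 and Pkm lie to the right of 0 there in both colours, while Eno2 among them lies to the left. On the right, Slc2a1, Hk1, Gapdh, Pkm, Pdk3 and Hif1a lie to the left of 0, with Pgk1, Pgam1 and Eno1 close to 0.

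Glucose enters fibroblasts mainly through GLUT1, the product of Slc2a1 on chromosome 4 from 119108711 to 119137983 (GRCm38, as for all positions here). Normalized counts of Slc2a1 were 828, 962 and 915 in scramble cells with vehicle, 1889.7, 2242 and 1701 in scramble cells with TGF-β, 348, 393 and 317 in H1.0 siRNA cells with vehicle and 728, 1005 and 627 in H1.0 siRNA cells with TGF-β. Within each siRNA background the TGF-β libraries lay above all vehicle libraries, and at each treatment the H1.0 siRNA libraries lay below all scramble libraries. TGF-β raised it 2.16-fold in scramble cells, a log2 fold change of 1.11 (SE 0.16, edgeR adjusted p = 0.00057), and 2.23-fold in H1.0 siRNA cells, 1.16 (SE 0.17, edgeR adjusted p = 0.000551). H1.0 siRNA lowered it 2.56-fold with vehicle, -1.36 (SE 0.17, edgeR adjusted p = 0.0001), and 2.47-fold with TGF-β, -1.30 (SE 0.16, edgeR adjusted p = 9.94e-05). The libraries with H1.0 siRNA and TGF-β thus sat around the level of scramble cells without the cytokine, at means of 787 and 902, with overlapping ranges. Its response to TGF-β differed between backgrounds by 0.05 ± 0.23 (log2, SE).

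Hexokinase traps glucose in the cell as glucose 6-phosphate. Hk1, the widely expressed form on chromosome 10 from 62268855 to 62379908, had normalized counts of 2690.2, 2629.6 and 2655 in scramble cells with vehicle, 3106, 2992 and 2777 in scramble cells with TGF-β, 1590.4, 1551 and 1617 in H1.0 siRNA cells with vehicle and 1967, 1731 and 1671 in H1.0 siRNA cells with TGF-β. The scramble libraries were tight and lay above every H1.0 siRNA library, and the log2 difference was -0.74 (SE 0.07, edgeR adjusted p = 1.44e-05) with vehicle and -0.72 (SE 0.07, edgeR adjusted p = 1.51e-05) with TGF-β. TGF-β itself moved Hk1 by 0.15 ± 0.07 and 0.17 ± 0.07 in scramble and H1.0 siRNA cells, which did not pass. Hk2, the inducible form on chromosome 6 from 82725025 to 82774454, had counts of 862, 941 and 1415 in scramble cells with vehicle, 1854, 2197 and 3047 in scramble cells with TGF-β, 777, 709 and 1259 in H1.0 siRNA cells with vehicle and 1774, 1854 and 3581 in H1.0 siRNA cells with TGF-β. Replicate 3 was the highest of the 3 libraries in every group, and the TGF-β libraries nevertheless lay above all vehicle libraries of their background. The log2 rise was 1.14 (SE 0.32, edgeR adjusted p = 0.0197) in scramble cells, short of the threshold by edgeR but called by DESeq2 (adjusted p = 0.00164), and 1.39 (SE 0.32, edgeR adjusted p = 0.00842) in H1.0 siRNA cells. That second call was lost when any of 7 libraries was left out (scramble vehicle 1 or 2, scramble TGF-β 1 or 2, H1.0 siRNA vehicle 1 or 2, H1.0 siRNA TGF-β 3), with an adjusted p of up to 0.0398, and also with an offset for transcript length or with only the groups compared in the fit. H1.0 siRNA did not change Hk2 by a called amount, at -0.22 ± 0.32 with vehicle and 0.02 ± 0.32 with TGF-β.

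As a share of the TPM of both hexokinases, Hk2 made up 24.3% ± 6.91 (SD, n = 3) in scramble cells with vehicle and 37.9% ± 8.08 with TGF-β. In H1.0 siRNA cells its share was 28.2% ± 8.57 with vehicle and 49.0% ± 9.68 with TGF-β. Vehicle and TGF-β libraries did not overlap in either background. Each of these differences had an exact two-sided permutation p of 0.1, which is the smallest that 3 against 3 libraries can give. The same limit holds for all 84 comparisons of shares within a step, those of the Pkm forms included, of which 44 reached it, and after Benjamini-Hochberg adjustment the smallest p was 0.191. In a step with only a pair of genes the shares are complements. Each such comparison is therefore counted for both genes with the same p, and these numbers are not of independent tests. The lactate dehydrogenase shares among them also rest on Ldhb, whose level is uncertain. Gpi1, the isomerase of the next step, was not called in any comparison, with log2 fold changes between 0.10 and 0.18.

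Phosphofructokinase 1 commits the sugar to glycolysis, and its liver, muscle and platelet subunits are encoded by Pfkl, Pfkm and Pfkp. Pfkp was higher after H1.0 siRNA, by 0.40 (SE 0.09, edgeR adjusted p = 0.00379) on the log2 scale with vehicle and by 0.41 (SE 0.09, edgeR adjusted p = 0.00297) with TGF-β. Both calls were lost with an offset for transcript length, without retained-intron transcripts and with only the groups compared in the fit. Leaving out 1 of scramble vehicle 1 or 2 or H1.0 siRNA vehicle 1 or 3 ended the first, and 1 of scramble TGF-β 1 or 3 or H1.0 siRNA TGF-β 2 the second, at adjusted p values of up to 0.0232 and 0.0153. With TGF-β Pfkp stood at 0.32 ± 0.09 in scramble and 0.34 ± 0.09 in H1.0 siRNA cells, called by DESeq2 (adjusted p = 0.00433 and 0.00306) and not by edgeR. For H1.0 siRNA Pfkm had log2 fold changes of -0.32 ± 0.09 and -0.33 ± 0.09 with vehicle and TGF-β without passing by edgeR (adjusted p = 0.0133 and 0.011). DESeq2 called both (adjusted p = 0.00213 and 0.00103). Pfkl stood at 0.00 and 0.06. With TGF-β edgeR called neither Pfkl nor Pfkm in either background. In scramble cells their log2 fold changes with TGF-β, with 1 library left out, were 0.298 to 0.571 for Pfkl and -0.316 to -0.167 for Pfkm. In TPM, the Pfkp share of the 3 subunits was 23.7% ± 2.65 (SD, n = 3) in scramble cells and 30.1% ± 2.09 in H1.0 siRNA cells with vehicle, and 25.1% ± 3.52 and 31.7% ± 2.65 with TGF-β. That of Pfkm fell from 29.0% ± 5.30 to 20.7% ± 2.03 with TGF-β in scramble cells and from 22.9% ± 1.41 to 15.6% ± 2.13 in H1.0 siRNA cells, without overlap of the libraries in either pair.

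The PFKFB enzymes make and break fructose 2,6-bisphosphate, the strongest activator of phosphofructokinase 1, and Pfkfb3 is the form with the highest kinase activity. Pfkfb3, on chromosome 2 from 11471433 to 11554077, had normalized counts of 491, 627 and 763 in scramble cells with vehicle, 1111, 1382 and 1398 in scramble cells with TGF-β, 600.2, 578 and 1012 in H1.0 siRNA cells with vehicle and 1136, 1119 and 1310.3 in H1.0 siRNA cells with TGF-β. All TGF-β libraries lay above all vehicle libraries of the same background, with vehicle library 3 of H1.0 siRNA the nearest. Its log2 rise was 1.05 (SE 0.22, edgeR adjusted p = 0.00379) in scramble cells and 0.70 (SE 0.21, edgeR adjusted p = 0.0294) in H1.0 siRNA cells, the latter called by DESeq2 (adjusted p = 0.00752) and not by edgeR. The first call was lost without any 1 of scramble vehicle 1 or 2 or scramble TGF-β 2 or 3 (adjusted p up to 0.0207) and also with an offset for transcript length. Pfkfb4, on chromosome 9 from 108991778 to 109032228, had counts of 134, 112 and 136 in scramble cells with vehicle, 168, 168 and 204 in scramble cells with TGF-β, 216, 206 and 229 in H1.0 siRNA cells with vehicle and 265, 282 and 388 in H1.0 siRNA cells with TGF-β. In Pfkfb4 too the TGF-β libraries lay above the vehicle libraries of each background, without a call by edgeR. Every H1.0 siRNA library was also above every scramble library of the same treatment, at 0.77 (SE 0.16, edgeR adjusted p = 0.00281) with vehicle and 0.79 (SE 0.15, edgeR adjusted p = 0.00213) with TGF-β. With vehicle this H1.0 siRNA call was lost without scramble vehicle 1 or 2 or H1.0 siRNA vehicle 1 or 3 (adjusted p up to 0.0146), with an offset for transcript length (0.0429) and after thinning to equal depth (0.0102). With TGF-β it was lost without scramble TGF-β 1 or 2 (adjusted p up to 0.0115) and in a fit of those groups alone (0.016). Pfkfb2 was not called in any comparison, and its log2 fold changes lay between -0.14 and 0.08.

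**Figure D2:**
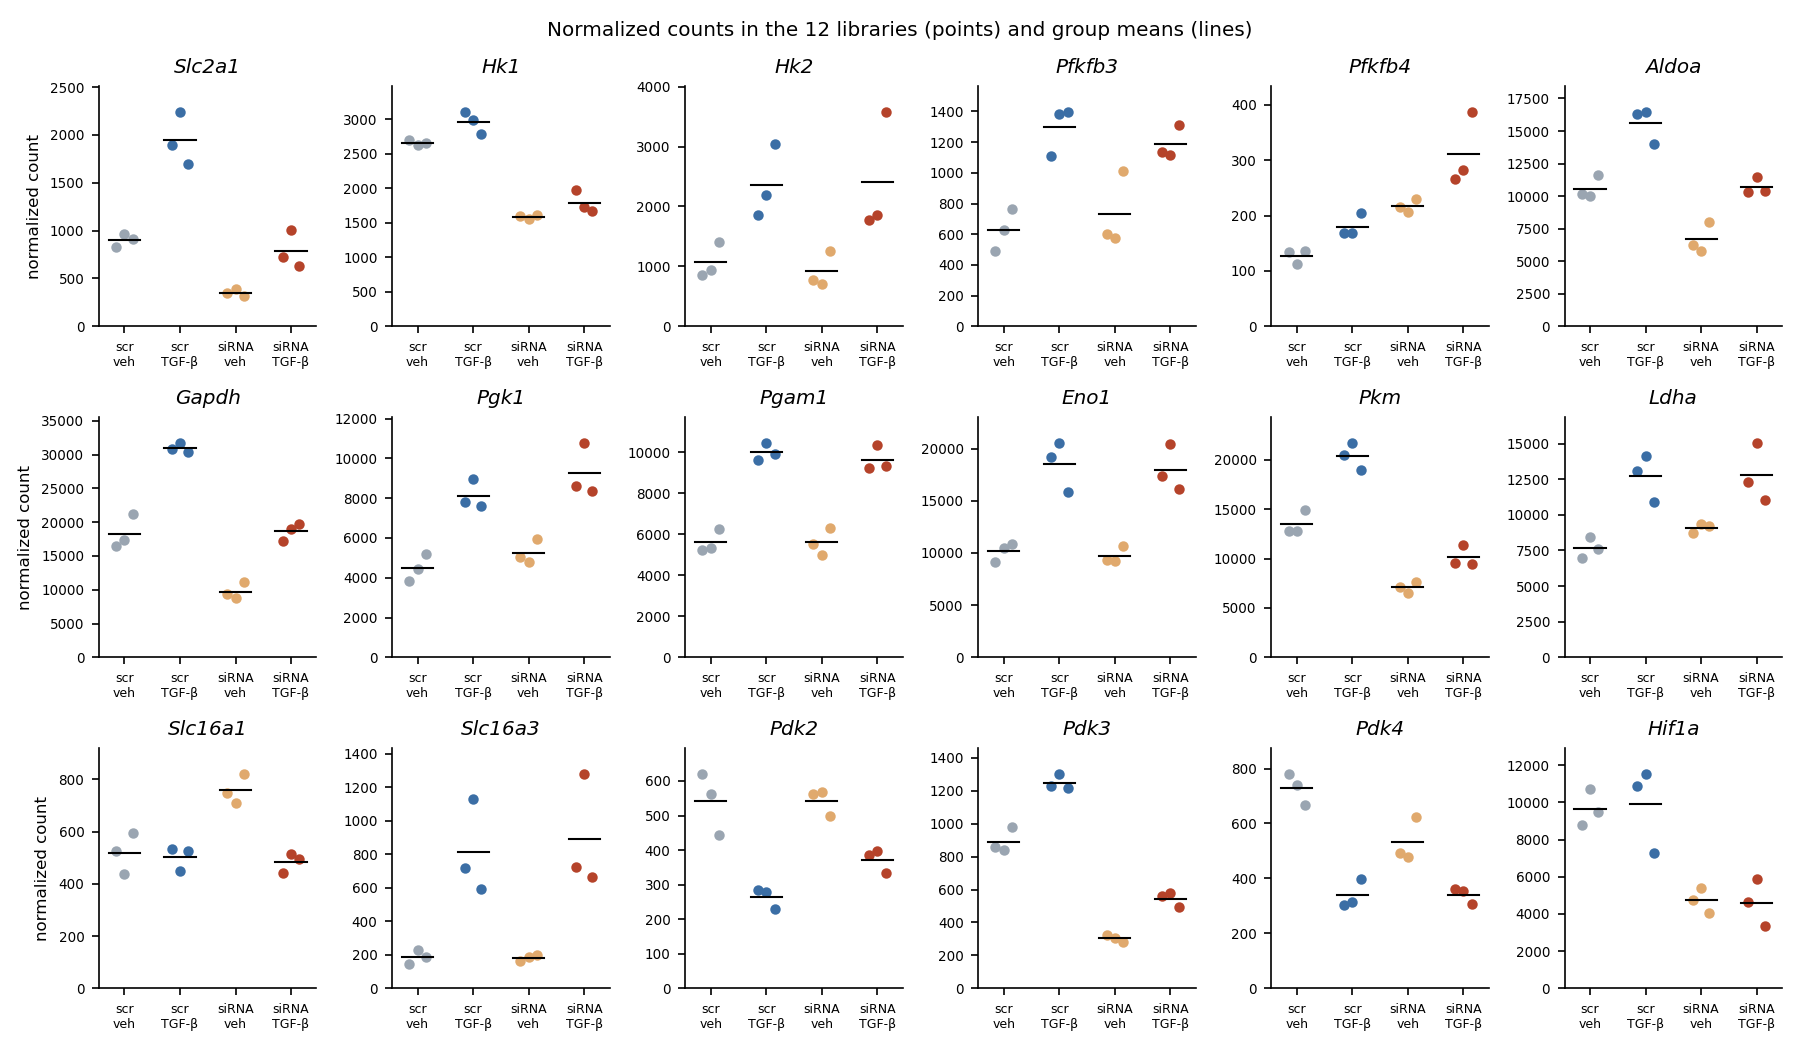
Normalized counts (y axes, from 0) of the 18 members whose called change reached 0.5 on the log2 scale in some comparison, in the 4 groups (scr, scramble; veh, vehicle), with a point for each of the 12 libraries and a line for the group mean. Pgk1, Pgam1 and Eno1 show pairs of low and high groups that follow TGF-β. In Slc2a1 and Gapdh the H1.0 siRNA groups sit lower at both treatments. In Hk1, Pkm, Pdk3 and Hif1a all H1.0 siRNA libraries lie below all scramble libraries.

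Aldolase, glyceraldehyde 3-phosphate dehydrogenase, phosphoglycerate kinase, phosphoglycerate mutase and enolase carry the sugar from its splitting to phosphoenolpyruvate. Aldoa, the main aldolase on chromosome 7 from 126795234 to 126800751, had normalized counts of 10149, 9999.8 and 11588 in scramble cells with vehicle, 16284, 16480.5 and 14019 in scramble cells with TGF-β, 6258, 5810.1 and 7997 in H1.0 siRNA cells with vehicle and 10308, 11461 and 10419 in H1.0 siRNA cells with TGF-β. TGF-β libraries lay above vehicle libraries and H1.0 siRNA libraries below scramble libraries, with no overlap in any of the 4 comparisons. TGF-β raised it by 0.56 (SE 0.12, edgeR adjusted p = 0.00449) in scramble cells and by 0.68 (SE 0.12, edgeR adjusted p = 0.0017) in H1.0 siRNA cells. H1.0 siRNA lowered it, at -0.66 (SE 0.12, edgeR adjusted p = 0.00117) with vehicle and -0.54 (SE 0.12, edgeR adjusted p = 0.0041) with TGF-β. Of these the call with vehicle held without any library. The TGF-β call in scramble cells was lost without scramble vehicle 1 or 2 or scramble TGF-β 1 or 2 (adjusted p up to 0.0221), that in H1.0 siRNA cells without H1.0 siRNA vehicle 1 (0.0101) or in a fit of those groups alone, and the H1.0 siRNA call with TGF-β without scramble TGF-β 1 or 2 or H1.0 siRNA TGF-β 1 or 3 (up to 0.019). Aldoc was rare, with normalized counts of 28.5 to 149 over the 12 libraries, and was not called.

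Gapdh, which oxidizes glyceraldehyde 3-phosphate and is widely used as a reference gene in qPCR, was the most abundant member and was not constant here. It lies on chromosome 6 from 125161715 to 125166467 and had normalized counts of 16411, 17306 and 21143 in scramble cells with vehicle, 30754, 31753 and 30389 in scramble cells with TGF-β, 9322, 8738 and 11152 in H1.0 siRNA cells with vehicle and 17153, 19045 and 19752 in H1.0 siRNA cells with TGF-β. In per-length units that was 1106 ± 149, 1807 ± 87.5, 564 ± 50.3 and 1019.6 ± 62.7 TPM (mean ± SD, n = 3) in the same 4 groups. The counts of H1.0 siRNA cells with TGF-β overlapped with those of scramble cells with vehicle, while the other pairs of groups were apart. Gapdh rose 1.69-fold with TGF-β in scramble cells, 0.76 (SE 0.11, edgeR adjusted p = 0.000626) on the log2 scale, and 1.92-fold in H1.0 siRNA cells, 0.94 (SE 0.11, edgeR adjusted p = 0.000196). It was 1.88-fold lower after H1.0 siRNA with vehicle, -0.91 (SE 0.11, edgeR adjusted p = 0.000108), and 1.66-fold lower with TGF-β, -0.73 (SE 0.11, edgeR adjusted p = 0.000443). Gapdh shares at least 100 stretches of 31 bases with each of 130 other annotated genes. These held reads equal to 5.59% of those assigned to Gapdh, the largest part of it, 1.83%, in Peli2, which has only 3.95% of Gapdh's stretches. How many of these reads fell on shared stretches was not counted, so how far the level rests on Salmon's division of reads is unknown.

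Pgk1, Pgam1 and Eno1 followed TGF-β without a called difference by siRNA. Phosphoglycerate kinase, the first ATP-forming enzyme of the pathway, is encoded by Pgk1 on chromosome X from 106187100 to 106203699, which had normalized counts of 3812, 4450.2 and 5203 in scramble cells with vehicle, 7789, 8953 and 7596 in scramble cells with TGF-β, 5017, 4766 and 5959 in H1.0 siRNA cells with vehicle and 8586, 10784 and 8370.1 in H1.0 siRNA cells with TGF-β. Pgam1, the mutase on chromosome 19 from 41911923 to 41918660, had counts of 5215, 5356 and 6265 in scramble cells with vehicle, 9623, 10466 and 9898 in scramble cells with TGF-β, 5534, 4974 and 6329 in H1.0 siRNA cells with vehicle and 9223, 10355 and 9339 in H1.0 siRNA cells with TGF-β. For Eno1, the enolase gene on chromosome 4 from 150236721 to 150248879, counts were 9163, 10485 and 10856 in scramble cells with vehicle, 19153, 20554 and 15825 in scramble cells with TGF-β, 9338, 9210.0 and 10690.1 in H1.0 siRNA cells with vehicle and 17346, 20388 and 16158 in H1.0 siRNA cells with TGF-β. In all 3 genes the 6 TGF-β libraries lay above the 6 vehicle libraries, and at equal treatment the siRNA groups overlapped. In scramble cells the log2 rise with TGF-β was 0.85 (SE 0.14, edgeR adjusted p = 0.000946) for Pgk1, 0.83 (SE 0.10, edgeR adjusted p = 0.000191) for Pgam1 and 0.86 (SE 0.12, edgeR adjusted p = 0.000426) for Eno1. The corresponding rises in H1.0 siRNA cells were 0.82 (SE 0.14, edgeR adjusted p = 0.00134), 0.78 (SE 0.10, edgeR adjusted p = 0.000261) and 0.88 (SE 0.12, edgeR adjusted p = 0.000392). H1.0 siRNA with TGF-β moved them by 0.19 ± 0.14, -0.05 ± 0.10 and -0.04 ± 0.12 (log2 ± SE), and with vehicle by 0.23 ± 0.14, 0.00 ± 0.10 and -0.06 ± 0.12. Of the stretches of 31 bases in Pgk1 54.7% occur in 4 other annotated genes and of those in Pgam1 37.1% in 2, but these other genes held almost no reads.

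Eno2, the neuronal enolase, was scarce and had log2 fold changes below 0 in all 4 comparisons, from -0.72 to -0.34. None was called by edgeR, while DESeq2 called it for H1.0 siRNA with vehicle (adjusted p = 0.00533). Without H1.0 siRNA TGF-β 2 edgeR called both H1.0 siRNA comparisons (adjusted p = 0.0066 and 0.00694). Its share of enolase TPM was 2.44% ± 0.313 (SD, n = 3) and 0.818% ± 0.0360 in scramble cells without and with TGF-β. Tpi1, the triose phosphate isomerase gene, cannot be read as a level in these files. Of its reads 64.7% were on 1 shorter coding transcript and its transcript Tpi1-205 had no reads in 10 of 12 libraries, so its normalized counts of 224 to 719.9, with no call, may hold only part of the gene.

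Pyruvate kinase makes pyruvate and ATP, and Pkm yields its M1 or M2 form through a choice between neighbouring exons. The M2 form is known for growing cells and can be held in a less active state, and the M1 form is constitutively active and typical of adult muscle. Pkm lies on chromosome 9 from 59656368 to 59679375 and had normalized counts of 12775, 12801 and 14919.5 in scramble cells with vehicle, 20460.3, 21720.3 and 19010.5 in scramble cells with TGF-β, 7082, 6529 and 7625 in H1.0 siRNA cells with vehicle and 9523, 11372 and 9448 in H1.0 siRNA cells with TGF-β. The 3 libraries with H1.0 siRNA and TGF-β lay below all 3 of scramble cells with vehicle, and the other groups were likewise apart. TGF-β raised Pkm by 0.60 (SE 0.10, edgeR adjusted p = 0.00118) in scramble cells and by 0.52 (SE 0.10, edgeR adjusted p = 0.00303) in H1.0 siRNA cells. H1.0 siRNA lowered it 1.91-fold with vehicle, a log2 fold change of -0.93 (SE 0.10, edgeR adjusted p = 3.93e-05), and 2.02-fold with TGF-β, -1.01 (SE 0.10, edgeR adjusted p = 2.02e-05). The TGF-β call in H1.0 siRNA cells was lost without H1.0 siRNA vehicle 1 or 2 or H1.0 siRNA TGF-β 2 (adjusted p up to 0.0155) and in a fit of those 2 groups alone.

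The exons that tell the forms apart are shown because the split of Pkm rests on them. Both are 167 bases long and stand in place of each other as exon 9 of Pkm-202 (M1) and Pkm-201 (M2), on the plus strand of GRCm38 at chr9:59675029-59675195 and chr9:59675568-59675734. They are coding exons with 103 identical positions (61.7%). Capitals mark the bases that differ, 5′ to 3′.
Pkm M1 exon: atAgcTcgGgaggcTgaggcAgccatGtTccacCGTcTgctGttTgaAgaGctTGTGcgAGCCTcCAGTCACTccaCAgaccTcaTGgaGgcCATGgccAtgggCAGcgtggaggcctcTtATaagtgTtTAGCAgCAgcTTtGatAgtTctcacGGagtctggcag
Pkm M2 exon: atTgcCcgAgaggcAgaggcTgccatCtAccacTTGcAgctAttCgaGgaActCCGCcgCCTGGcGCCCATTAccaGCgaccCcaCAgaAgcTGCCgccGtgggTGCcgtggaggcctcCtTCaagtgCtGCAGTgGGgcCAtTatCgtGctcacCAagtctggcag

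The M1 transcript made up 26.3%, 26.6% and 25.3% of M1 and M2 TPM in scramble cells with vehicle and 27.8%, 28.8% and 25.4% with TGF-β. In H1.0 siRNA cells the vehicle libraries had 18.9%, 19.0% and 19.7%, and the TGF-β libraries 20.9%, 21.2% and 19.5%. Every H1.0 siRNA library was below every scramble library, while vehicle and TGF-β overlapped within each background. The means were 26.1% ± 0.687 and 19.2% ± 0.392 with vehicle (SD, n = 3), a difference of -6.88 percentage points, and 27.3% ± 1.72 and 20.5% ± 0.928 with TGF-β, a difference of -6.83 (exact two-sided permutation p = 0.1 for each, the smallest possible). M1 TPM was 107 to 118 in scramble and 37.3 to 42.4 in H1.0 siRNA cells with vehicle, and 144 to 197 and 49.9 to 66.7 with TGF-β. M2 TPM ran from 297 to 349 and from 159 to 173 with vehicle, and from 421 to 489 and from 207 to 248 with TGF-β. Both forms were thus lower after H1.0 siRNA, M1 by the larger factor. The division of reads between both transcripts is an estimate by Salmon, and its uncertainty within a library is unknown here.

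**Figure D3:**
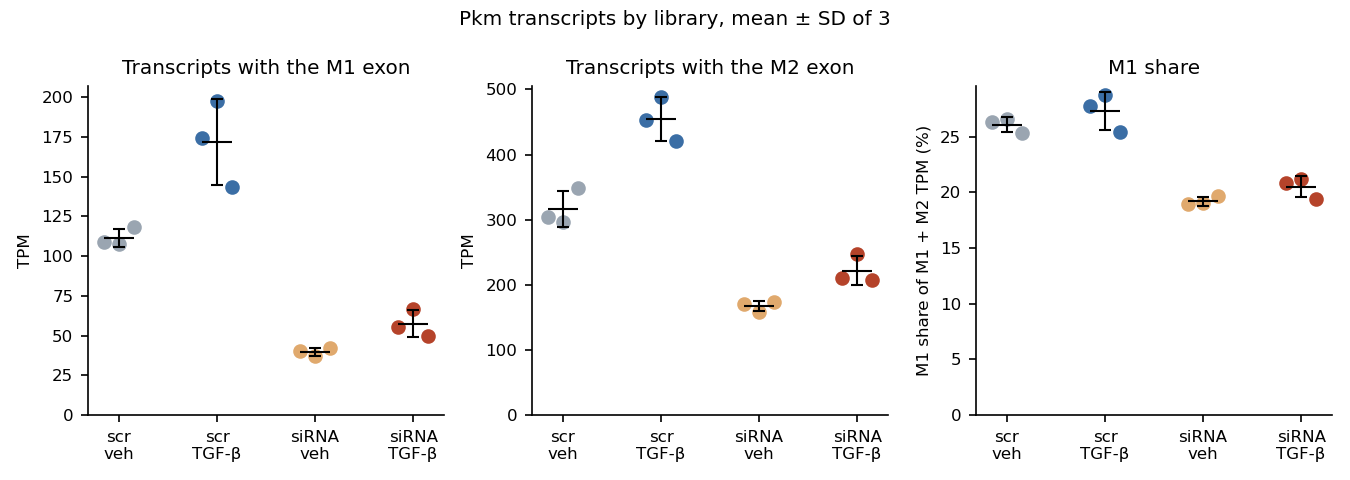
TPM of the Pkm transcripts with the M1 exon (left) and the M2 exon (middle), and the M1 share of their sum in percent (right), with a point per library and the mean ± SD of 3 libraries for each group (scr, scramble; veh, vehicle). Both transcripts rise with TGF-β and are lower with H1.0 siRNA, and the M1 share is 25.3% to 28.8% in scramble and 18.9% to 21.2% in H1.0 siRNA libraries.

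Lactate dehydrogenase A favours the step from pyruvate to lactate. Ldha lies on chromosome 7 from 46841475 to 46855627 and had normalized counts of 6987, 8445 and 7631 in scramble cells with vehicle, 13075, 14118 and 10882 in scramble cells with TGF-β, 8721, 9384 and 9193 in H1.0 siRNA cells with vehicle and 12292, 15058 and 11024 in H1.0 siRNA cells with TGF-β. TGF-β libraries exceeded vehicle libraries in both backgrounds, with vehicle the H1.0 siRNA libraries lay above the scramble libraries, and with TGF-β the siRNA groups overlapped. The log2 rise was 0.72 (SE 0.13, edgeR adjusted p = 0.00146) in scramble cells and 0.49 (SE 0.12, edgeR adjusted p = 0.0131) in H1.0 siRNA cells, the latter called by DESeq2 (adjusted p = 0.00107) and not by edgeR, with a difference between both responses of -0.23 ± 0.18. H1.0 siRNA gave no call for Ldha, at 0.24 ± 0.12 with vehicle and 0.01 ± 0.12 with TGF-β. Ldhb is not described as a level, since its transcript Ldhb-201 was not among those analysed here and its remaining transcripts held normalized counts of 0 to 112.

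Lactate leaves or enters the cell through monocarboxylate transporters, MCT4 (Slc16a3) being the one suited to export and MCT1 (Slc16a1) working in both directions. Slc16a3, on chromosome 11 from 120948480 to 120960868, had normalized counts of 147, 229.6 and 189 in scramble cells with vehicle, 719.7, 1131 and 596 in scramble cells with TGF-β, 163, 188 and 201 in H1.0 siRNA cells with vehicle and 724, 1282 and 667 in H1.0 siRNA cells with TGF-β. All TGF-β libraries lay far above all vehicle libraries, and replicate 2 was highest in both TGF-β groups. Its rise was the largest fold change among the members, 4.32-fold in scramble cells, 2.11 (SE 0.30, edgeR adjusted p = 0.000465) on the log2 scale, and 4.83-fold in H1.0 siRNA cells, 2.27 (SE 0.30, edgeR adjusted p = 0.000299). H1.0 siRNA changed it by -0.03 ± 0.30 and 0.13 ± 0.28, far from a call. Slc16a1, on chromosome 3 from 104638668 to 104658462, had counts of 525, 437 and 593 in scramble cells with vehicle, 535, 451 and 524 in scramble cells with TGF-β, 746, 709 and 822 in H1.0 siRNA cells with vehicle and 441, 514 and 494 in H1.0 siRNA cells with TGF-β. The group that stood apart was H1.0 siRNA with vehicle, whose 3 libraries exceeded all 9 others. It was accordingly higher than scramble with vehicle, 0.55 (SE 0.12, edgeR adjusted p = 0.00316), and fell with TGF-β in H1.0 siRNA cells, -0.65 (SE 0.12, edgeR adjusted p = 0.00186), but not in scramble cells, -0.04 ± 0.12. The difference between these responses was -0.61 ± 0.17 with an unadjusted p of 0.00333, the lowest among the members, and an adjusted p of 0.149 by edgeR, so it did not pass. The call for H1.0 siRNA was lost without scramble vehicle 1 or 2 or H1.0 siRNA vehicle 3 (adjusted p up to 0.0154) and with only the groups compared in the fit. In TPM, Slc16a3 made up 49.6% ± 8.34 of both transporters in scramble cells with vehicle and 77.9% ± 7.19 with TGF-β, and 40.3% ± 4.24 and 81.2% ± 4.74 in H1.0 siRNA cells (SD, n = 3).

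The members that encode subunits of the pyruvate dehydrogenase complex gave 1 call by edgeR. Its further subunits Dld and Pdhx are not members and are counted with the genes of pyruvate entry below. Pdha1, the catalytic α subunit, was lower after H1.0 siRNA with vehicle, -0.41 (SE 0.06, edgeR adjusted p = 0.000422). With TGF-β Pdha1 stood at -0.17 ± 0.06, called by DESeq2 (adjusted p = 0.0086) and not by edgeR. Pdhb, the β subunit, and Dlat, the acetyltransferase core, were not called by edgeR in any comparison, with log2 fold changes from -0.14 to 0.27 and from -0.12 to 0.24. DESeq2 called both for TGF-β in scramble cells, Pdhb with an adjusted p of 0.00788 and Dlat with 0.000943. For Dlat so did edgeR with RLE size factors, with another filter or with an offset for transcript length (adjusted p of 0.00681 to 0.00858).

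The 4 kinases that switch the complex off, encoded by Pdk1 to Pdk4, moved in different directions. Pdk3, on chromosome X from 93764607 to 93832201, had normalized counts of 856, 840.1 and 978 in scramble cells with vehicle, 1227, 1303 and 1219 in scramble cells with TGF-β, 324, 307 and 282 in H1.0 siRNA cells with vehicle and 560.2, 581 and 495 in H1.0 siRNA cells with TGF-β. All 6 H1.0 siRNA libraries lay below all scramble libraries, and TGF-β libraries lay above vehicle libraries in each background. Pdk3 was 2.93-fold lower after H1.0 siRNA with vehicle, -1.55 (SE 0.09, edgeR adjusted p = 7.32e-07), and 2.29-fold lower with TGF-β, -1.20 (SE 0.09, edgeR adjusted p = 2.8e-06), the lowest adjusted p of any member in both comparisons. With TGF-β it rose by 0.49 (SE 0.09, edgeR adjusted p = 0.00147) in scramble cells and 0.84 (SE 0.09, edgeR adjusted p = 7.4e-05) in H1.0 siRNA cells, and the difference of 0.36 ± 0.12 between these responses did not pass (edgeR adjusted p = 0.26).

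Pdk2 and Pdk4 went the other way with the cytokine. Pdk2, the broadly expressed kinase on chromosome 11 from 95026258 to 95041354, had counts of 621, 561 and 443 in scramble cells with vehicle, 286, 279.9 and 229 in scramble cells with TGF-β, 561, 567 and 498 in H1.0 siRNA cells with vehicle and 385, 397 and 333 in H1.0 siRNA cells with TGF-β. Each TGF-β library was below each vehicle library of its background. The log2 fall was -1.03 (SE 0.14, edgeR adjusted p = 0.000309) in scramble cells and -0.54 (SE 0.13, edgeR adjusted p = 0.0102) in H1.0 siRNA cells, the latter just short by edgeR and called by DESeq2 (adjusted p = 0.000759) and limma-voom (0.00773). Pdk4, induced by fasting and fatty acids in other tissues and lying on chromosome 6 from 5483351 to 5496309, had counts of 781, 738 and 666 in scramble cells with vehicle, 305, 316 and 399 in scramble cells with TGF-β, 491, 479 and 623 in H1.0 siRNA cells with vehicle and 360.0, 353 and 308 in H1.0 siRNA cells with TGF-β. It also fell without overlap, at -1.10 (SE 0.13, edgeR adjusted p = 0.000204) in scramble cells and -0.65 (SE 0.13, edgeR adjusted p = 0.00396) in H1.0 siRNA cells. The call in H1.0 siRNA cells was lost without H1.0 siRNA vehicle 3 or H1.0 siRNA TGF-β 2 or 3 (adjusted p up to 0.0174), in a fit of those groups alone and with an offset for transcript length. With TGF-β both siRNA groups ended at similar Pdk4 counts, 339.9 and 340.0 on average. For H1.0 siRNA edgeR called neither gene, while DESeq2 called Pdk4 with vehicle (adjusted p = 0.00298) and Pdk2 with TGF-β (0.00765). Pdk1, a hypoxia target, showed log2 fold changes from -0.19 to 0.34 and was not called.

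Within the kinases' summed TPM, Pdk3 made up 40.0% ± 4.45 (SD, n = 3) in scramble cells with vehicle and 59.5% ± 3.77 with TGF-β, and 21.4% ± 1.86 and 35.6% ± 3.28 in H1.0 siRNA cells. None of these 4 sets of libraries overlapped in the 4 comparisons made. The Pdk2 share ran opposite, at 23.4% ± 3.03 and 12.1% ± 0.895 in scramble cells and 34.1% ± 0.536 and 24.6% ± 2.78 in H1.0 siRNA cells. Its difference by H1.0 siRNA with vehicle, 10.7 percentage points, became 16.3 when only coding transcripts were summed.

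**Figure D4:**
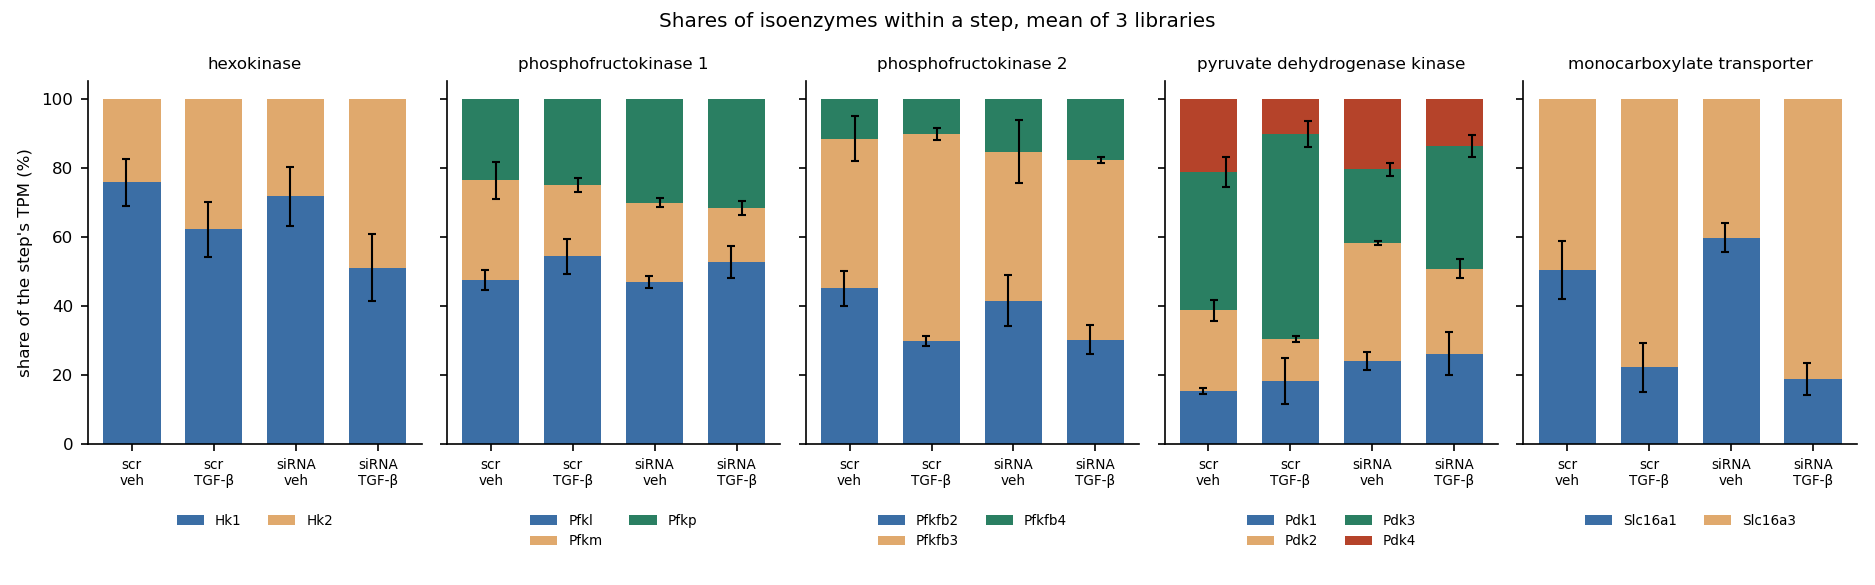
Mean share of each isoenzyme in the summed TPM of its step (y axis, percent, stacked to 100) in the 4 groups (scr, scramble; veh, vehicle) for hexokinases, phosphofructokinase 1 subunits, PFKFB enzymes, pyruvate dehydrogenase kinases and monocarboxylate transporters. The bar at the top of a segment is the SD of that segment's share over 3 libraries (the top segment has none). The Slc16a3 share rises from 49.6% to 77.9% and from 40.3% to 81.2% with TGF-β, and Pdk3 goes from 40.0% to 21.4% with H1.0 siRNA under vehicle.

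Hif1a encodes the oxygen-regulated subunit of HIF-1, a factor that binds upstream of many glycolysis genes and is controlled largely through protein stability. On chromosome 12 from 73901375 to 73947530, it had normalized counts of 8765, 10705 and 9479.6 in scramble cells with vehicle, 10875, 11543 and 7280.3 in scramble cells with TGF-β, 4734, 5391 and 4075 in H1.0 siRNA cells with vehicle and 4644, 5858 and 3335 in H1.0 siRNA cells with TGF-β. TGF-β gave no call, at 0.04 ± 0.21 in scramble and -0.04 ± 0.21 in H1.0 siRNA cells. Every H1.0 siRNA library was below every scramble library, with log2 fold changes of -1.03 (SE 0.21, edgeR adjusted p = 0.00272) with vehicle and -1.10 (SE 0.21, edgeR adjusted p = 0.00181) with TGF-β. The call with vehicle was lost without scramble vehicle 2 or H1.0 siRNA vehicle 1 or 3 (adjusted p up to 0.0132), and the call with TGF-β in a fit of those groups alone. Bnip3, a mitophagy receptor and HIF target, was not called, with log2 fold changes from -0.18 to 0.15.

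Levels per length set the scale of these changes. In scramble cells with vehicle Gapdh stood at 1106 ± 149 TPM (SD, n = 3), followed by Aldoa at 594 ± 43.4, Pkm at 474 ± 41.7, Eno1 at 409 ± 33.5, Ldha at 401 ± 33.7, Pgam1 at 253 ± 22.7, Gpi1 at 205 ± 18.3 and Pgk1 at 196 ± 28.5. Pairs of neighbours in this order whose SDs overlapped were Pkm and Eno1, Eno1 and Ldha, Gpi1 and Pgk1. Regulated entry and exit points were far scarcer, with Slc2a1 at 24.5 ± 1.64, Pdk3 at 33.2 ± 2.56, Hk2 at 18.2 ± 6.77, Pfkfb3 at 14.6 ± 4.11 and Slc16a3 at 8.65 ± 1.94 TPM. In H1.0 siRNA cells with TGF-β the order at the top changed, with Gapdh at 1019.6 ± 62.7, Eno1 at 668 ± 108, Ldha at 603 ± 106, Aldoa at 547 ± 34.0, Pgam1 at 395 ± 29.4, Pgk1 at 368 ± 57.5 and Pkm at 331 ± 44.6 TPM. Here the neighbours with overlapping SDs were Eno1 and Ldha, Ldha and Aldoa, Pgam1 and Pgk1, Pgk1 and Pkm. By its mean Pkm thus went from the third to the seventh place. The groups ranked differ in both siRNA and TGF-β, so this shift belongs to neither alone.

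Promoters of 4 members that rose with TGF-β in scramble cells are shown: Pgk1 and Ldha were not called for H1.0 siRNA, and Slc2a1 and Pdk3 were lower after it. They are RefSeq sequences on GRCm38.p6, from 250 bases before to 50 after the start site, printed 5′ to 3′ on the strand of the gene, at chrX:106186850-106187149 (plus strand) for Pgk1, chr7:46845554-46845853 (plus) for Ldha, chr4:119108495-119108794 (plus) for Slc2a1 and chrX:93832101-93832400 (minus) for Pdk3. Capitals mark every match, on either strand, to the letters ACGTG, a form of the core that HIF-1 binds, or its complement. Other forms of that core, such as GCGTG, were neither marked nor counted.
Pgk1 promoter: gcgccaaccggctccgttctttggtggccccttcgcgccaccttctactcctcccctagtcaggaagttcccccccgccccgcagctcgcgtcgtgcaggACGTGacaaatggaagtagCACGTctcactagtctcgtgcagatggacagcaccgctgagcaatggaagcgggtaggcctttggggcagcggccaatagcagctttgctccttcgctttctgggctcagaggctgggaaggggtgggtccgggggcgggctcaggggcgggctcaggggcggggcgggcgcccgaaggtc
Ldha promoter: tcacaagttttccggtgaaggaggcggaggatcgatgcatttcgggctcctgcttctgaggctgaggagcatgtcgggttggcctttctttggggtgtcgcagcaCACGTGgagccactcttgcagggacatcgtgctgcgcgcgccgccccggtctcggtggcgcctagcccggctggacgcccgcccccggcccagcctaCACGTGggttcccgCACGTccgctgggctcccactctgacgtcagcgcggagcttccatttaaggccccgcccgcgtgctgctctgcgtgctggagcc
Slc2a1 promoter: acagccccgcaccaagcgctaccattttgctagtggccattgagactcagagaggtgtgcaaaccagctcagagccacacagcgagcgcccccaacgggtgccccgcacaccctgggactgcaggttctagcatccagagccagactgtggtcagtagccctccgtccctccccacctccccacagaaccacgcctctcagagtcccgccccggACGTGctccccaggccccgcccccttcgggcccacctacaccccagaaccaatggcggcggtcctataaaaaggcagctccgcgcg
Pdk3 promoter: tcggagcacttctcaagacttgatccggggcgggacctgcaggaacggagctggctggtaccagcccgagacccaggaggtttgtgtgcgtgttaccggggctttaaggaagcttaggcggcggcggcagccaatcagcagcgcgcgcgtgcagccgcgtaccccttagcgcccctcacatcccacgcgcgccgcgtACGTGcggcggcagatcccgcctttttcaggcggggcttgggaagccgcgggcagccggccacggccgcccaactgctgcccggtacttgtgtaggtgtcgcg

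Ldha had 5 matches, Pgk1 2, and Slc2a1 and Pdk3 1 each, but these 4 do not stand for their kinds. Of the other members lower after H1.0 siRNA in both settings, Hif1a had 3, Hk1 2, Gapdh and Aldoa 1 each and Pkm 0. Of the others that rose with TGF-β in scramble cells without a call for H1.0 siRNA, Slc16a3 and Pfkfb3 had 2 each, Pgam1 1 and Eno1 0. All 32 members matched a promoter, the nearest to the start of their most abundant transcript, and 18 of them held ACGTG, compared with 19.62% of all 32851 promoters of this length, which were not matched for base composition or expression. The E-box letters CACGTG, which contain ACGTG on both strands so that each E-box counts as a pair of overlapping matches, were in 7 members and in 7.15% of all promoters. The matches of Ldha include 2 E-boxes. Matches occurred in members of every kind, such as Gapdh and Aldoa among the genes lower after H1.0 siRNA and Pgk1, Pgam1 and Ldha among those not called for it. A match says only that the letters are there. For Hk1, Ldhb, Tpi1 and Slc16a3 the start site used lies 17941, 12309, 1088 and 587 bases away from the start of the most abundant transcript.

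Genes next to the pathway were counted in the same way, beside the share of all genes called. Of 18 tricarboxylic acid cycle genes 9 were higher and 1 lower after H1.0 siRNA with vehicle (13.4% and 11.2% of all genes, with a median log2 fold change of 0.31 against 0.00 over all genes). Under TGF-β 8 of them were higher and 1 was lower (13.0% and 11.3% of all genes, median 0.24 against 0.04). Among them Sdhc, a subunit of succinate dehydrogenase, was higher by 0.83 (SE 0.08) and 0.86 (SE 0.08), and Idh2, the mitochondrial NADP-dependent isocitrate dehydrogenase, was lower, at -1.02 (SE 0.18) and -1.54 (SE 0.18). With TGF-β 4 of the 18 rose and 1 fell in scramble cells, where 10.5% and 7.94% of all genes did, and 2 rose and 1 fell in H1.0 siRNA cells, where 9.14% and 6.60% did. Of 9 genes of the pentose phosphate pathway, which draws off glucose 6-phosphate, 5 were higher and 0 lower after H1.0 siRNA with vehicle (median 0.69) and 3 were higher and 1 lower with TGF-β (median 0.45), Pgd among the higher ones by 1.07 (SE 0.15) and 0.85 (SE 0.15). None of them was called for TGF-β in scramble cells, and 1 fell in H1.0 siRNA cells.

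In the lists that follow, the shares of all genes remain 10.5% risen and 7.94% fallen with TGF-β in scramble cells, 9.14% and 6.60% in H1.0 siRNA cells. After H1.0 siRNA they remain 13.4% higher and 11.2% lower with vehicle and 13.0% and 11.3% with TGF-β. In lists this short 1 or 2 calls are near those shares. Further isoenzymes outside the 32 (11 tested of 17 listed) had 3 risen and 1 fallen with TGF-β in scramble cells, 2 risen and 1 fallen in H1.0 siRNA cells, and 2 higher with vehicle, or 1 higher and 1 lower with TGF-β, after H1.0 siRNA. Of 8 other glucose transporters 1 rose and 1 fell with TGF-β in either background, and 1 was higher and 1 lower (vehicle) or 1 higher (TGF-β) after H1.0 siRNA. Among 11 genes of gluconeogenesis and glycogen 2 rose and 3 fell in scramble cells and 2 rose and 2 fell in H1.0 siRNA cells with TGF-β, while H1.0 siRNA gave 1 higher and 2 lower with vehicle and 1 higher with TGF-β. The 13 genes of pyruvate entry and related dehydrogenases had 3 risen in scramble cells and 1 fallen in H1.0 siRNA cells with TGF-β, and 1 higher (vehicle) or 1 higher and 1 lower (TGF-β) after H1.0 siRNA.

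Of 9 regulators of HIF, 1 rose and 2 fell with TGF-β in scramble cells, with Epas1, which encodes HIF-2α, at -1.75 (SE 0.26), and 1 rose in H1.0 siRNA cells. After H1.0 siRNA 1 was lower with vehicle, and 1 higher and 1 lower with TGF-β. Of 18 other HIF target genes 5 rose and 3 fell with TGF-β in scramble cells (10.5% and 7.94% of all genes) and 5 rose and 1 fell in H1.0 siRNA cells (9.14% and 6.60%), with Vegfa higher by 1.42 (SE 0.34) and 1.74 (SE 0.34). After H1.0 siRNA 2 were higher and 2 lower with vehicle and 3 higher and 1 lower with TGF-β (median log2 fold changes 0.25 and 0.29). A list of 17 genes that act on glycolytic transcription held kinase genes such as Mtor and Stk11, and Txnip and Arrdc4, beside transcription factors. Of these 17, 2 rose and 3 fell in scramble cells and 3 rose and 2 fell in H1.0 siRNA cells with TGF-β. H1.0 siRNA gave 1 higher and 4 lower with vehicle and 1 higher and 2 lower with TGF-β, with Max, the partner of Myc, lower, at -0.81 (SE 0.06) and -0.72 (SE 0.06).

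Markers of other cell types moved with some of the same comparisons. With TGF-β 3 of 8 macrophage markers fell in scramble cells and 4 of 8 in H1.0 siRNA cells, and their summed TPM was 1298 to 1434, 956 to 987, 1060 to 1149 and 576 to 859 in scramble vehicle, scramble TGF-β, H1.0 siRNA vehicle and H1.0 siRNA TGF-β. After H1.0 siRNA 1 was higher with vehicle and 1 lower with TGF-β. Of 6 smooth muscle and pericyte markers 1 rose in scramble and 2 in H1.0 siRNA cells with TGF-β, and 1 was lower after H1.0 siRNA at each treatment, with a summed TPM of 178 to 336 in scramble and 80.6 to 172 in H1.0 siRNA libraries. Most of that sum was Pdgfrb, which ranged from 78.4 to 271 TPM over the 12 libraries, while Rgs5, the next highest, reached at most 27.2 TPM. Endothelial markers summed to at most 60.9 TPM with 1 of 6 lower after H1.0 siRNA at each treatment, cardiomyocyte markers had 2 of 8 lower after H1.0 siRNA at each treatment and 1 lower with TGF-β in H1.0 siRNA cells, and mesothelial and glial markers summed to at most 29.0 and 4.34 TPM with none called. Of 9 fibroblast markers 1 rose and 3 fell in scramble cells and 2 rose and 5 fell in H1.0 siRNA cells with TGF-β, and after H1.0 siRNA 2 were higher with vehicle and 1 higher and 2 lower with TGF-β. Their part in the differences of the glycolysis genes was not tested.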

How the data were processed

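RNA depleted of ribosomal RNA was sequenced from 12 libraries, 3 in each of 4 groups, grouped by their labels. Per the file headers and the study's methods, the authors quantified each library with Salmon on mouse transcripts (mm10) and deposited estimated counts and TPM per transcript. Of 117135 transcripts, 115973 were matched to the annotation, their estimated counts were summed per gene and rounded, and a gene was kept if its 12 libraries held 10 counts or more in all. The deposited TPM values were summed per gene for levels and shares, which are shares of TPM within a step.

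Counts were normalized by TMM and fitted with edgeR 4.0.16 (R 4.3.3) by the quasi-likelihood test, all 4 groups in 1 fit, with Benjamini-Hochberg adjustment over all genes and a call at an adjusted p under 0.01. Shares were compared with the exact permutation test (scipy 1.17.1). The scripts were tested on simulated data. DESeq2 1.42.0, limma 3.58.1 (voom), other normalizations, filters, a replicate block and the omission of single libraries served as alternatives. Values in every library are given for members called with an absolute log2 fold change of at least 0.5, and the other members by range and counts. From other lists, genes were named from the widest called changes (up to 2 per list, comparison and direction). Totals of 19.9 to 36.3 M counts limit the precision of scarce genes. Members and lists were chosen with earlier results of these data known.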

Additional observations from a re-analysis of the deposited data

How the results depend on the processing

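Over all alternatives, 3524 values of single members kept their side of the threshold, 61 passed it newly, 63 no longer passed it and 0 called values reversed. Some values that stayed uncalled changed sign, such as Tpi1 for TGF-β in scramble cells (log2 -0.345 to 0.637 without 1 library). In scramble cells TGF-β called 13 members and between 11 and 15 without 1 library, 17 by DESeq2 and 13 by limma-voom. In H1.0 siRNA cells it called 12, between 9 and 14 without 1 library, 16 by DESeq2, 13 by limma-voom and 8 in a fit of these groups alone. H1.0 siRNA called 9 members with TGF-β (6 to 11 without 1 library, 12 by DESeq2) and 11 with vehicle (7 to 12, 14 by DESeq2), the 7 without scramble vehicle 2. The difference of responses called 0 members in all fits run. The M1 share of Pkm after H1.0 siRNA with vehicle differed by -6.15 percentage points from estimated counts in place of TPM, and by -7.27 to -6.62 without 1 library. With the replicate block, 18, 17, 11 and 12 members were called in these 4 comparisons, in the order given, and 0 for the difference, for which it called 74 genes higher and 44 lower in all. The block newly called Hk2 for TGF-β in scramble cells (log2 1.15, edgeR adjusted p = 5.69e-06), with further calls for Pdhb, Dlat and Pfkfb4 there. Same-numbered libraries correlated at 0.042 to 0.277 in their deviations over 18028 genes and differently numbered ones at -0.223 to 0.049. Over the 11453 genes with a mean count of at least 100, these values were 0.08 to 0.593 and -0.559 to 0.289. All 12 libraries correlated best with one of their own number, a hint from the data and not from the design. Levels of Ldhb and Tpi1 and the division of reads between near copies and between Pkm transcripts are limited by the transcript set and by Salmon's assignment.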
